A study of Danio rerio with 4 samples.

Results

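Cell cycle and DNA replication genes were compared in RNA-seq libraries of sorted olfactory sensory neurons (OSNs) of zebrafish embryos. The 72 genes are those, of 29029 in the files, whose symbol begins as genes of the replication machinery or the cell cycle engine do. They comprise the origin recognition (orc) and minichromosome maintenance (mcm) genes, cdc6, mcm10, cdc45 and gins genes, pcna, top2a, mki67 and the ribonucleotide reductase (rrm) genes. The rest are A, B, D and E type cyclins with cdk1, cdk2, cdk4, cdk6 and cdc25 genes, E2F factors, aurora and polo kinase genes, bub checkpoint genes, cdc20 and centromere protein (cenp) genes. The symbols were matched in lower case, and 7 upper-case symbols of the same families were outside this choice. The pattern also caught 2 genes by prefix only: aurkaip1, a mitochondrial ribosome gene, and mcm3ap, whose product serves mRNA export.

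There were 4 libraries, 2 for OMP and 2 for TRPC2 neurons. OMP libraries came from embryos in which the promoter of the olfactory marker protein gene drives membrane-bound RFP in ciliated OSNs. TRPC2 libraries came from embryos in which the promoter of the channel gene trpc2 drives membrane-bound Venus in microvillous OSNs. All embryos were untreated, of strain Tubingen/TLF and at 48 hpf, and cells were pooled by fluorescence sorting of dissociated olfactory epithelia, either RFP only or Venus only. RNA went through 1 round of T7 amplification for OMP and 2 rounds for TRPC2. Fewer cells were sorted for TRPC2 than for OMP, and the fewest for TRPC2 library 2, so the class cannot be told apart from the number of cells or the amplification. In pooled cells, fewer cells expressing a gene and less of its RNA per cell cannot be told apart either.

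Before a cell divides it copies its genome once. The origin recognition complex marks the start sites, CDC6 loads the ring of MCM2 to MCM7 proteins there, and CDC45 and the GINS proteins turn the ring into the active helicase, behind which PCNA clamps the polymerases to DNA. Cyclins switch on cyclin-dependent kinases (CDKs), E2F factors set the transcription of many of these genes, and aurora and polo kinases, the bub checkpoint proteins and the centromere proteins act in mitosis. These genes are known to be high in dividing progenitors and low in neurons that have left the cell cycle. OSNs descend from dividing progenitors of the olfactory placode and epithelium.

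Counts over genes were between 49483362 and 84599818 per library, and levels are given as deposited RPM, reads scaled to library size, of which the gene rows made up 56.0% to 75.9%. The 3-read level, taken as the floor of detection, lay between 0.0269 and 0.0356 RPM. As a check of the classes, ompb was at 185 and 218 RPM in OMP, against 0.24 and 6.95 RPM in TRPC2, and trpc2b was at 2.80 and 3.82 RPM in OMP, against 13.5 and 24.2 RPM in TRPC2. The related channel gene trpc2a went against the label of TRPC2 library 2, at 1.44 and 1.56 RPM in OMP, against 11.4 and 0.21 RPM in TRPC2. Summed over 7 genes each, the ciliated list was at 523 and 644 RPM in OMP, against 94.9 and 77.0 RPM in TRPC2, and the microvillous list at 753 and 719 RPM in OMP, against 2315 and 1677 RPM in TRPC2. Most of the microvillous sum in TRPC2 was s100z, at 1482 and 993 RPM, and 3 of the 7 genes were above both OMP libraries in TRPC2. Red blood cell genes summed to 10914 and 109496 RPM in OMP, against 14.8 and 20.5 RPM in TRPC2, where 3 and 4 of the 13 genes had a read. Skin genes summed to 4457 and 7623 RPM in OMP, against 1527 and 897 RPM in TRPC2, and 11 of the 12 were above both TRPC2 libraries in OMP (60.1% of all genes). The exception, epcam, was at 890 and 1004 RPM in OMP, against 1181 and 371 RPM in TRPC2, a large part of the TRPC2 sums. Eye and lens genes summed to 171 and 189 RPM in OMP, against 312 and 229 RPM in TRPC2, where pax6b alone was at 289 and 127 RPM. Of the 10, 7 were above both TRPC2 libraries in OMP, where the share over all genes was 60.1%. Leukocyte genes summed to 66.1 to 96.3 RPM in all 4 libraries, but single genes went opposite ways, mpeg1.1 being at 17.9 and 32.4 RPM in OMP, against 0.01 and 5.67 RPM in TRPC2, and lyz at 3.24 and 3.47 RPM in OMP, against 48.4 and 10.4 RPM in TRPC2. Sums were low for vascular and muscle genes, at 15.0 RPM or less. The part of these cells in the values that follow was not tested.

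Transcripts of the cell cycle genes were present in every library. All 72 members had at least 10 reads in both OMP libraries. In TRPC2, 66 and 65 members had a read, 61 of them in both libraries, and 63 and 60 members had at least 10 reads. Over all 21026 genes tested, 79.1% and 80.0% had a read in the TRPC2 libraries, against 91.7% and 90.3% of the members. At least 10 reads were found for 99.4% and 99.0% of the genes tested in OMP, so the full detection of members there was not particular to them. In TRPC2 these shares were 66.2% and 67.8%, against 87.5% and 83.3% of the members. The members without a read in TRPC2 library 1 were ccna1, ccnd2b, cenpo, cenpv, gins4 and mcm3l, and in TRPC2 library 2 they were bub1bb, cenpv, cenpw, mcm10, mcm3l, mcm6l and orc6. The summed level of the members was 2487 and 2282 RPM in OMP, against 1994 and 527 RPM in TRPC2. By this sum, to which a few high genes gave much, TRPC2 library 1 was nearer to the OMP libraries and TRPC2 library 2 stood apart below them. The median member was at 15.4 and 14.8 RPM in OMP, against 10.6 and 2.9 RPM in TRPC2. The median of all genes tested was 5.67 and 5.67 RPM in OMP, against 1.67 and 1.57 RPM in TRPC2.

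**Figure D1:**
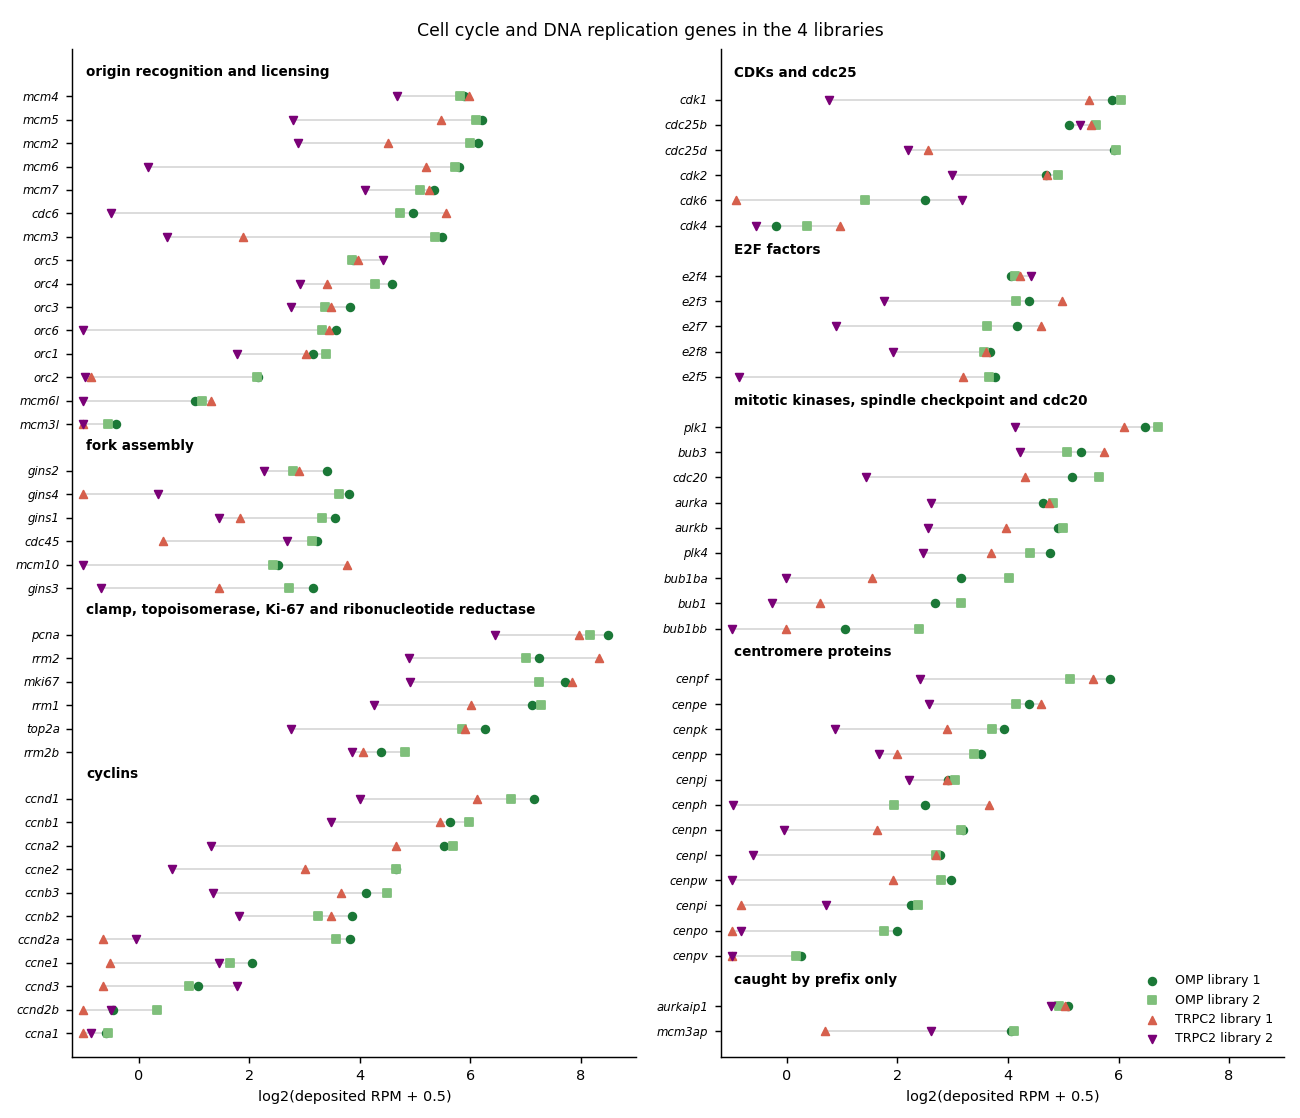
Level of each of the 72 genes, grouped by role, as log2(deposited RPM + 0.5) on the horizontal axis. Each marker is 1 library (OMP libraries in green, TRPC2 libraries in orange and purple) and grey lines span the 4 libraries. The green markers sit close together in most rows. The purple TRPC2 library 2 was the lowest of the 4 in 56 rows, 77.8%, against 40.0% of all genes tested.

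Between the classes, no member passed edgeR's quasi-likelihood test with Benjamini-Hochberg adjustment over all genes, in either direction. The test called 0.0% of the 21026 genes higher in OMP and 0.0% higher in TRPC2, and the smallest adjusted p of any gene or member was 0.0721. At an unadjusted p under 0.05 it had 7 of 72 members higher in OMP, where all genes gave 4907 or 23.3%, and 0 members higher in TRPC2, where all genes gave 1510 or 7.18%. DESeq2 called 6 of the 70 members it tested higher in OMP, against 13.2% of all genes, and 0 higher in TRPC2, against 5.78%. limma on log2(RPM + 0.5) called 8 members higher in OMP, against 23.5% of all genes, and 0 higher in TRPC2, against 0.785%. The 8 were ccnd2a, cdc25d, cenpo, cenpv, gins4, mcm3, mcm3l and orc2, and the 6 of DESeq2 were bub1, ccnd2a, cdc25d, cenpo, mcm3 and orc2. At edgeR's unadjusted threshold, by DESeq2 and by limma, the members' shares were below those of all genes. The all-gene shares include genes with few or no reads in TRPC2, which passed the filter through OMP alone. Such genes could hardly come out higher in TRPC2. At least 10 reads in TRPC2 were found for 66.2% and 67.8% of the genes tested, against 87.5% and 83.3% of members. The members cenpv and mcm3l, without a read in TRPC2, also passed only through OMP. Shares higher in OMP, also those of separated genes below, therefore do not compare like with like.

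By levels alone, each OMP library exceeded each TRPC2 library for 44 members, which is 61.1%, where the share over all genes was 60.1%. By role, the 44 held 8 of 15 genes of origin recognition and licensing and 4 of 6 that complete the helicase. They held 3 of 6 clamp, topoisomerase, Ki-67 and reductase genes, 2 of 6 CDK and cdc25 genes and 1 of 5 E2F factors. The others were 9 of 11 cyclins, 9 of 12 cenp genes, 7 of 9 mitotic kinase, checkpoint and cdc20 genes and 1 of 2 caught by prefix. For orc5 and e2f4, 2 of 72 members, both TRPC2 libraries were above both OMP libraries, where the share over all genes was 7.42%. The remaining 26 members overlapped between the classes. The median log2 fold change, OMP over TRPC2, was 0.52 over the members and 0.49 over all genes. The median over all genes was 0.36 under DESeq2's scaling and 1.13 under library totals, so changes are read relative to it. How near the members' median lay to it depended on the filter. With at least 100 counts in 2 libraries the medians were 0.45 over the members and 0.12 over all genes. Without a filter they were 0.53 and 1.06. On TMM-scaled counts the separations were 28 members higher in OMP, against 44.7% of all genes, and 4 higher in TRPC2, against 18.6%. Without TRPC2 library 1 the count above TRPC2 was 67 (75.4% of all genes) and without TRPC2 library 2 it was 46 (72.4%). Below TRPC2 were 4 members (17.8% of all genes) and 14 members (19.9%). The members' median log2 fold change was 1.69 without TRPC2 library 1, with a median of 1.24 over all genes, and -0.11 without TRPC2 library 2, with 1.33 over all genes.

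The wider spread lay within the TRPC2 class. The OMP libraries differed by a median of 0.22 in absolute log2 ratio over the members (0.30 over all genes), and the TRPC2 libraries by 1.68 (0.70 over all genes). Of the members, 70 were within 2-fold between the OMP pair and 21 between the TRPC2 pair, where the shares over all genes were 92.4% and 60.1%. TRPC2 library 2 was below TRPC2 library 1 in 57 members, 79.2%, against 45.3% of all genes. Genes without a read in either TRPC2 library count as equal in the share over all genes, here and below. Among the 15294 genes of at least 1 RPM on average the share was 50.1%. Their median log2 ratio was -0.01, with quartiles of -1.07 and 0.91. The median log2 ratio was -1.52 over the members and 0.00 over all genes. The members' median was -1.56 on TMM-scaled counts and -1.94 on gene totals. It was more than 2-fold below in 44 members, 61.1%, against 20.9% of all genes, and TRPC2 library 1 was more than 2-fold below in 7 members, 9.72%, against 19.1%. Between the OMP libraries 1 member was more than 2-fold lower in library 2 (3.43% of all genes) and 1 in library 1 (4.15%). The members were cdk6, lower in OMP library 2, and bub1bb, lower in OMP library 1. With 1 library on each side this difference has no replicate check, and the comparison was chosen after the values were seen.

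**Figure D2:**
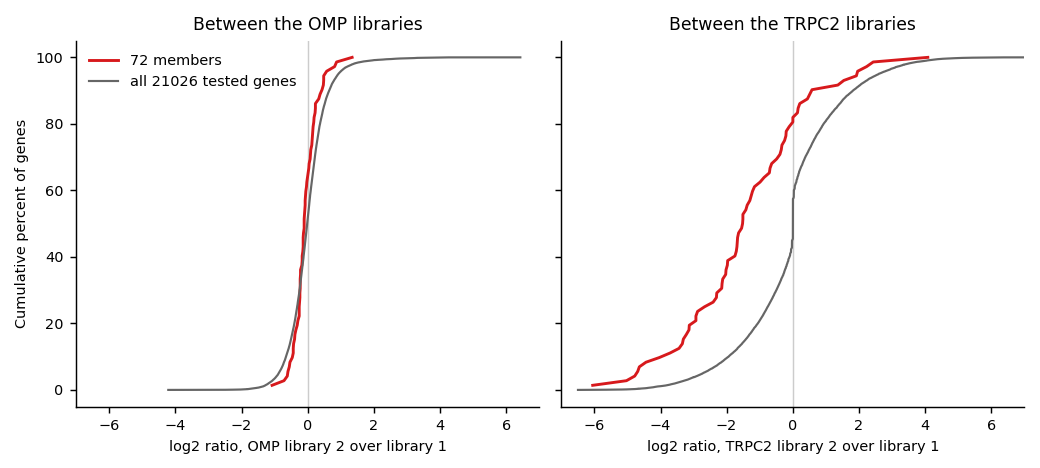
Cumulative percent of genes by log2 ratio of library 2 over library 1, on log2(RPM + 0.5), for the OMP libraries (left) and the TRPC2 libraries (right). The 72 members are in red and all 21026 tested genes in grey. In the OMP panel the members cross 50% at -0.11 and all genes at -0.02, and in the TRPC2 panel the members cross it at -1.52 and all genes at 0.00.

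Set against the OMP libraries, TRPC2 library 1 was within 2-fold of the OMP mean for 44 members, and TRPC2 library 2 for 16 members. Over all genes these shares were 47.2% and 44.2%. Both OMP libraries were above TRPC2 library 1 for 46 members (72.4% of all genes) and below it for 14 (19.9%). Both were above TRPC2 library 2 for 67 members (75.4% of all genes) and below it for 4 (17.8%). The median log2 ratio of the OMP mean over TRPC2 library 1 was 0.54 for the members and 0.86 for all genes, and over TRPC2 library 2 it was 2.37 for the members and 0.96 for all genes.

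**Figure D3:**
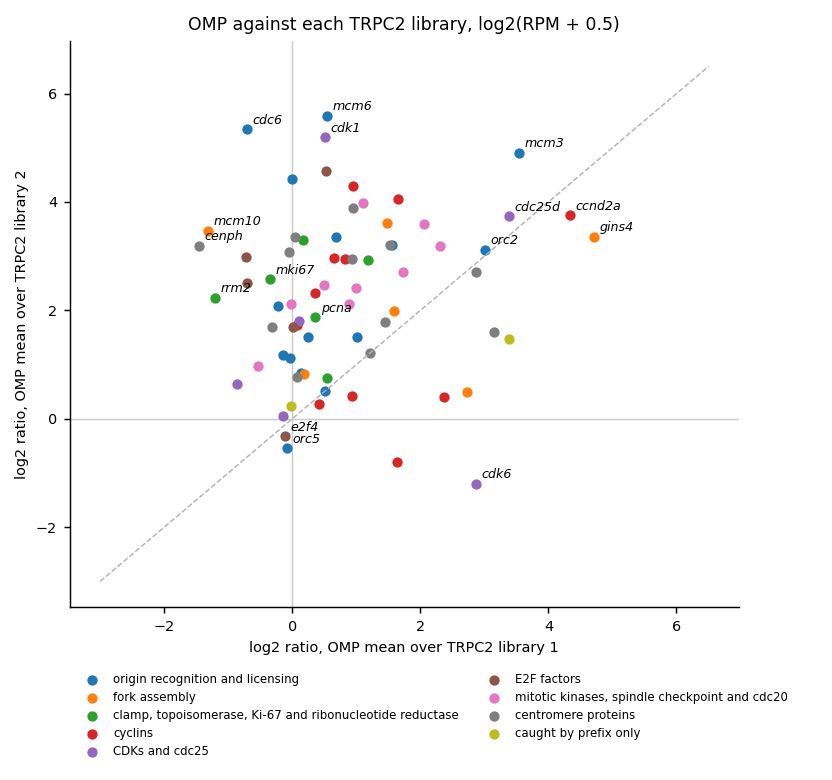
Log2 ratio of the OMP mean over TRPC2 library 1 (horizontal) and over TRPC2 library 2 (vertical), on RPM + 0.5, 1 point for each of the 72 genes, coloured by role. The dashed line marks equal ratios, and most points lie above it, with median ratios of 0.54 on the horizontal and 2.37 on the vertical axis.

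Genes that license replication were lower in TRPC2 library 2 than in library 1 in 13 of 15 members, against 45.3% of all genes. Summed over 15 genes of origin recognition and licensing, the level was 448 and 407 RPM in OMP, against 308 and 93.7 RPM in TRPC2. mcm2, a subunit of the helicase ring, was at 70.0 and 63.5 RPM in OMP, against 22.3 and 6.82 RPM in TRPC2, and both TRPC2 libraries were below both OMP libraries (log2 fold change 1.43 ± 0.63 SE, edgeR adjusted p = 0.216). mcm5 of the same ring was at 73.3 and 67.8 RPM in OMP, against 43.5 and 6.43 RPM in TRPC2, a separation of the same direction that was 6.77-fold between the TRPC2 libraries (log2 fold change 0.74 ± 0.89 SE, adjusted p = 0.649). mcm6 was at 54.7 and 52.0 RPM in OMP, against 36.2 and 0.62 RPM in TRPC2. The OMP libraries were nearly equal for each of these, and the spread lay between the TRPC2 libraries.

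mcm4 and mcm7, also ring subunits, overlapped between the classes. mcm4 was at 58.6 and 55.4 RPM in OMP, against 62.7 and 25.1 RPM in TRPC2, with TRPC2 library 1 above both OMP libraries and TRPC2 library 2 below them. mcm7 was at 40.0 and 33.3 RPM in OMP, against 37.5 and 16.5 RPM in TRPC2. cdc6, the loader of the ring, was at 30.6 and 26.1 RPM in OMP, against 46.5 and 0.21 RPM in TRPC2, the highest and the lowest of the 4 libraries both being TRPC2.

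mcm3, another ring subunit, was far lower in each TRPC2 library than in each OMP library. Its level was 44.5 and 40.7 RPM in OMP, against 3.21 and 0.93 RPM in TRPC2, a log2 fold change of 3.6 ± 0.77 (SE; edgeR adjusted p = 0.0721, n = 2 libraries a class). Its copy mcm3l was at 0.25 and 0.18 RPM in OMP, without a read in either TRPC2 library, which puts OMP at least 6.18-fold above the mean of the 3-read floors of the TRPC2 libraries. The copy mcm6l was at 1.53 and 1.71 RPM in OMP, against 1.96 and 0 RPM in TRPC2. Reads could have been shared between mcm3 and mcm3l, and between mcm6 and mcm6l, so the split within each pair is uncertain.

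The 6 origin recognition genes gave different patterns. orc2 was at 3.97 and 3.88 RPM in OMP, against 0.05 and 0.01 RPM in TRPC2, next to nothing in both TRPC2 libraries (log2 fold change 6.29 ± 1.6 SE, edgeR adjusted p = 0.0728). orc6 was at 11.3 and 9.39 RPM in OMP, against 10.3 and 0 RPM in TRPC2, with no read in TRPC2 library 2 alone. orc1 was at 8.44 and 9.98 RPM in OMP, against 7.67 and 2.91 RPM in TRPC2. orc3 and orc4 were each between 6.27 and 23.4 RPM in the 4 libraries, lowest in TRPC2 library 2. orc5 went the other way, at 14.2 and 14.1 RPM in OMP, against 15.1 and 20.8 RPM in TRPC2, both TRPC2 libraries above both OMP libraries by a small margin. Its log2 fold change was -1.14 ± 0.48 (SE, adjusted p = 0.197) with TMM, -0.45 with library totals and -0.32 with limma on RPM.

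Genes that complete the helicase were not uniform. mcm10, cdc45 and gins1 to gins4 summed to 57.1 and 46.9 RPM in OMP, against 26.4 and 13.3 RPM in TRPC2. mcm10, which acts as the helicase is switched on, was at 5.20 and 4.85 RPM in OMP, against 13.2 and 0 RPM in TRPC2, and the TRPC2 libraries lay on either side of the OMP pair. gins4 was at 13.5 and 11.8 RPM in OMP, against 0 and 0.78 RPM in TRPC2, and cdc45 at 8.79 and 8.31 RPM in OMP, against 0.86 and 5.89 RPM in TRPC2. These were 2 members of this group with more reads in TRPC2 library 2 than in library 1, and both were below OMP in each TRPC2 library. gins1, gins2 and gins3 were between 6.04 and 11.2 RPM in OMP, against 0.12 to 6.99 RPM in TRPC2, lowest in TRPC2 library 2.

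Among genes of DNA synthesis and proliferation markers, the sum in TRPC2 library 1 was close to OMP and that in TRPC2 library 2 was low. The 6 genes of this group summed to 954 and 804 RPM in OMP, against 937 and 184 RPM in TRPC2. pcna, the polymerase clamp, was at 359 and 287 RPM in OMP, against 250.0 and 87.1 RPM in TRPC2 (log2 fold change 0.17 ± 0.56 SE, edgeR adjusted p = 0.881). mki67, which encodes the Ki-67 antigen of cycling cells, was at 210.2 and 151 RPM in OMP, against 228 and 29.5 RPM in TRPC2, a 7.73-fold gap between the TRPC2 libraries around an OMP level that varied less. top2a, the topoisomerase that untangles sister chromatids, was at 76.8 and 56.8 RPM in OMP, against 59.1 and 6.27 RPM in TRPC2.

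Ribonucleotide reductase makes the deoxyribonucleotides for DNA synthesis. Its large subunit gene rrm1 was at 138 and 154 RPM in OMP, against 63.9 and 18.7 RPM in TRPC2, with both TRPC2 libraries below both OMP libraries. rrm2, the small subunit made in S phase, was at 149.9 and 127 RPM in OMP, against 319 and 28.9 RPM in TRPC2, an 11-fold gap that put TRPC2 library 1 above and TRPC2 library 2 below the OMP pair. rrm2b, a small subunit known in mammals to serve DNA repair outside S phase, was at 20.5 and 27.8 RPM in OMP, against 16.2 and 13.9 RPM in TRPC2. The TRPC2 libraries were nearly equal for rrm2b, in contrast to rrm2.

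**Figure D4:**
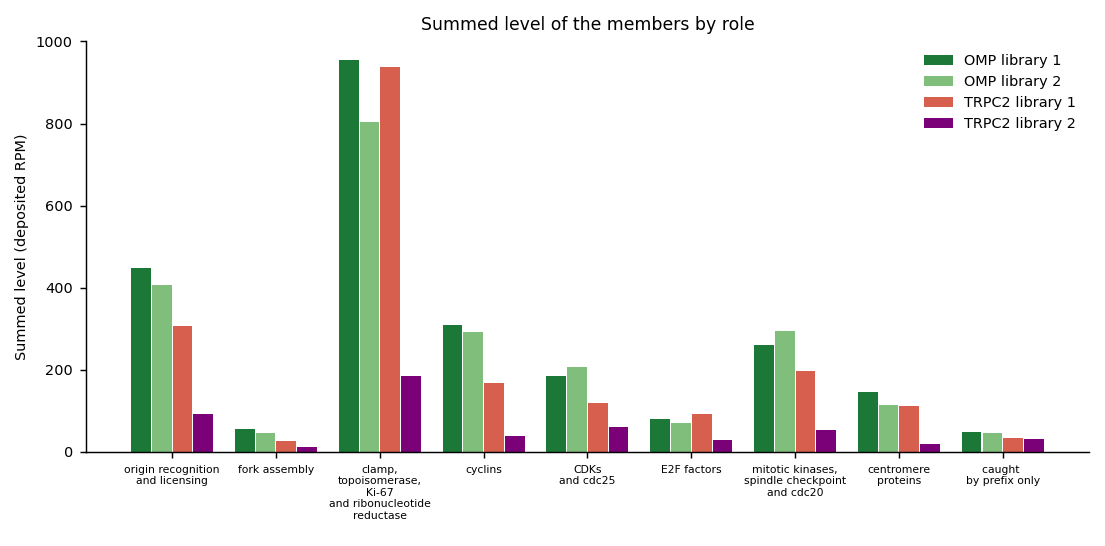
Summed deposited RPM of the genes in each role, 1 bar for each of the 4 libraries (OMP in green, TRPC2 in orange and purple), with the vertical axis starting at 0. TRPC2 library 2 has the lowest bar in every role, with 184 RPM against 804 to 954 RPM in the other libraries for the clamp, topoisomerase, Ki-67 and reductase genes.

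Cyclins summed to 310 and 292 RPM in OMP, against 168 and 40.1 RPM in TRPC2, and 9 of the 11 were above both TRPC2 libraries in OMP, where the share over all genes was 60.1%. The B type cyclins, ccna2 and ccne2 were lowest in TRPC2 library 2, while ccna1 and ccne1 were lowest in TRPC2 library 1. ccnb1, the cyclin that drives entry into mitosis with CDK1, was at 49.3 and 62.2 RPM in OMP, against 43.3 and 10.6 RPM in TRPC2. ccna2, which acts in S phase and up to mitosis, was at 45.2 and 51.2 RPM in OMP, against 24.7 and 1.98 RPM in TRPC2, and ccne2, a cyclin of the start of replication, at 24.5 and 24.7 RPM in OMP, against 7.51 and 1.01 RPM in TRPC2. ccnb2 and ccnb3 were between 8.92 and 21.9 RPM in OMP, against 2.04 to 12.1 RPM in TRPC2, and ccna1 was at 0.18 RPM or less in all 4 libraries.

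D type cyclins, which couple growth signals to the cell cycle, did not follow 1 pattern. ccnd1 was at 141 and 106 RPM in OMP, against 69.2 and 15.6 RPM in TRPC2 (log2 fold change 0.79 ± 0.73 SE, edgeR adjusted p = 0.549). That fold change was 2.03 without TRPC2 library 1 and 0.09 without TRPC2 library 2. ccnd2a was at 13.7 and 11.4 RPM in OMP, against 0.14 and 0.46 RPM in TRPC2, low in both TRPC2 libraries (log2 fold change 4.57 ± 1.18 SE, adjusted p = 0.0741). ccnd3 was at 1.59 and 1.38 RPM in OMP, against 0.14 and 2.94 RPM in TRPC2, and ccne1, an E type cyclin, at 3.63 and 2.65 RPM in OMP, against 0.20 and 2.23 RPM in TRPC2. These last genes were among the few with more reads in TRPC2 library 2 than in library 1, and ccnd2b was at 0.76 RPM or less in all 4 libraries.

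The kinase partners differed among themselves. cdk1, the kinase of mitosis, was at 58.8 and 65.7 RPM in OMP, against 43.5 and 1.2 RPM in TRPC2, a 36.2-fold gap between the TRPC2 libraries (log2 fold change of OMP over TRPC2 0.74 ± 1.44 SE, edgeR adjusted p = 0.796). cdk2, which works with cyclins A and E, was at 25.2 and 29.5 RPM in OMP, against 25.4 and 7.45 RPM in TRPC2. cdk6, a partner of D type cyclins, was at 5.16 and 2.17 RPM in OMP, against 0.03 and 8.46 RPM in TRPC2, and here TRPC2 library 2 was the highest of the 4. cdk4 was at 0.37 and 0.79 RPM in OMP, against 1.44 and 0.18 RPM in TRPC2.

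The cdc25 phosphatases, which remove the inhibitory phosphate from CDKs, were split by gene rather than by library. cdc25d was at 60.1 and 61.3 RPM in OMP, against 5.34 and 4.08 RPM in TRPC2, with each class nearly equal in its libraries. It had the smallest unadjusted p of the members, 0.0011, with a log2 fold change of 2.91 ± 0.41 (SE, n = 2 libraries a class) and an edgeR adjusted p of 0.0721. cdc25b was at 33.9 and 47.6 RPM in OMP, against 44.6 and 38.8 RPM in TRPC2, the classes overlapping in RPM and the TRPC2 libraries within 1.15-fold. Its log2 fold change was -0.81 ± 0.37 (SE, edgeR adjusted p = 0.229) with TMM, -0.2 with library totals and -0.05 with limma on RPM. Summed with the 4 kinases, these genes were at 184 and 207 RPM in OMP, against 120 and 60.2 RPM in TRPC2.

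E2F factors summed to 79.2 and 69.5 RPM in OMP, against 93.1 and 28.4 RPM in TRPC2. e2f3, an activator of replication genes, was at 20.3 and 17.3 RPM in OMP, against 31.0 and 2.89 RPM in TRPC2, with TRPC2 library 1 highest and TRPC2 library 2 lowest of the 4. The repressor genes e2f7 and e2f8 are known to act late in S phase, and e2f7 was at 17.3 and 11.8 RPM in OMP, against 23.8 and 1.36 RPM in TRPC2, and e2f8 at 12.3 and 11.3 RPM in OMP, against 11.7 and 3.29 RPM in TRPC2. e2f5 was at 13.1 and 12.1 RPM in OMP, against 8.57 and 0.05 RPM in TRPC2. e2f4, known in mammals for repression in resting cells, was the exception, at 16.1 and 17.0 RPM in OMP, against 18 and 20.8 RPM in TRPC2. Its log2 fold change was -1.02 ± 0.43 (SE, edgeR adjusted p = 0.203) with TMM, -0.36 with library totals and -0.22 with limma on RPM.

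In the kinase, checkpoint and cdc20 group of mitosis, 9 of 9 members were lower in TRPC2 library 2 than in library 1. Over all genes this share was 45.3%. The group summed to 260 and 295 RPM in OMP, against 198 and 54.1 RPM in TRPC2. plk1, the polo kinase of mitotic entry, was at 88.2 and 104 RPM in OMP, against 68.2 and 16.9 RPM in TRPC2, and cdc20, the activator of the anaphase-promoting complex, at 35.4 and 49.6 RPM in OMP, against 19.3 and 2.18 RPM in TRPC2. aurka, a kinase of spindle poles, was at 24.2 and 27.8 RPM in OMP, against 26.4 and 5.57 RPM in TRPC2, and overlapped between the classes, while aurkb, the kinase of the chromosomal passenger complex, was at 29.6 and 31.4 RPM in OMP, against 15.1 and 5.34 RPM in TRPC2, and did not. plk4, the kinase of centriole duplication, was at 26.7 and 20.7 RPM in OMP, against 12.4 and 5.04 RPM in TRPC2.

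The spindle checkpoint delays anaphase until chromosomes are attached. Its kinase gene bub1 was at 5.89 and 8.35 RPM in OMP, against 1.02 and 0.33 RPM in TRPC2 (log2 fold change 2.64 ± 1.19 SE, edgeR adjusted p = 0.225), low in both TRPC2 libraries. bub1ba and bub1bb, which could share reads, were between 1.56 and 15.6 RPM in OMP, against 0 to 2.39 RPM in TRPC2. bub3, the adaptor of these kinases, was at 39.7 and 33.1 RPM in OMP, against 52.8 and 18.2 RPM in TRPC2, with TRPC2 library 1 above both OMP libraries.

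Genes with a cenp symbol summed to 146 and 114 RPM in OMP, against 111 and 20.2 RPM in TRPC2, and 9 of the 12 were above both TRPC2 libraries in OMP (60.1% of all genes). cenpf, a kinetochore protein gene of late cycle cells, was at 56.8 and 34.3 RPM in OMP, against 45.8 and 4.80 RPM in TRPC2, a 9.54-fold gap between the TRPC2 libraries. cenpe, the kinetochore motor, was at 20.4 and 17.3 RPM in OMP, against 23.6 and 5.44 RPM in TRPC2, and cenph, of the inner kinetochore, at 5.14 and 3.32 RPM in OMP, against 12.2 and 0.01 RPM in TRPC2. In all 3, TRPC2 library 2 was the lowest of the 4 libraries.

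The inner kinetochore genes cenpo and cenpi were instead low in both TRPC2 libraries. cenpo was at 3.48 and 2.88 RPM in OMP, against 0 and 0.06 RPM in TRPC2 (log2 fold change 5.89 ± 2.18 SE, edgeR adjusted p = 0.154). With 1 TRPC2 library at 0 reads this value depends on the prior count, and it was 4.76 without TRPC2 library 1 and 11.17 without TRPC2 library 2. cenpi was at 4.26 and 4.70 RPM in OMP, against 0.06 and 1.13 RPM in TRPC2. cenpv was at 0.70 and 0.62 RPM in OMP, without a read in TRPC2, which puts OMP at least 19-fold above the mean 3-read floor of the TRPC2 libraries. The remaining cenp genes, grouped by symbol and not by known function, were cenpj, cenpk, cenpl, cenpn, cenpp and cenpw. They were between 6.01 and 14.8 RPM in OMP, against 0 to 6.96 RPM in TRPC2. Each of these was lowest in TRPC2 library 2.

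The 2 genes caught by prefix only did not share a pattern. aurkaip1 was at 33.6 and 29.8 RPM in OMP, against 32.1 and 26.9 RPM in TRPC2, nearly level in RPM in the 4 libraries. Its log2 fold change was -0.68 ± 0.36 (SE, edgeR adjusted p = 0.292) with TMM and 0.11 with limma on RPM. mcm3ap was at 16 and 16.8 RPM in OMP, against 1.11 and 5.60 RPM in TRPC2. Of the 7 upper-case symbols, the copy of cenpf was at 119 and 102 RPM in OMP, against 224 and 83.0 RPM in TRPC2, and the split of reads between the copies is uncertain. E2F2 was at 9.08 and 6.66 RPM in OMP, against 2.86 and 0 RPM in TRPC2, CENPU at 10.6 and 8.37 RPM in OMP, against 0.12 and 0.02 RPM in TRPC2, and E2F6 at 16.9 and 18.7 RPM in OMP, against 9.25 and 4.73 RPM in TRPC2. CENPT, E2F1 and CCNB1IP1 were at 14.8 RPM or less in all 4 libraries.

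Other cell cycle genes, taken from 3 further lists, were read in the same way. edgeR called 0 of these genes in either direction, and 8 had an unadjusted p under 0.05, 7 of them higher in OMP, where 23.3% of all genes were higher in OMP and 7.18% higher in TRPC2 at this threshold. The 37 genes of the replication fork and S phase summed to 930 and 840 RPM in OMP, against 629 and 255 RPM in TRPC2. Of these, 28 were lower in TRPC2 library 2 than in library 1, against 45.3% of all genes (median log2 ratio -1.43). rpa1, which coats single-stranded DNA, was at 78.0 and 83.5 RPM in OMP, against 48.0 and 17.5 RPM in TRPC2, and the ligase gene lig1 at 66.6 and 51.7 RPM in OMP, against 80.4 and 20.2 RPM in TRPC2. gmnn, whose product geminin blocks renewed licensing, was at 12.3 and 12.1 RPM in OMP, against 13.7 and 17.6 RPM in TRPC2, above OMP in both TRPC2 libraries as orc5 and e2f4 were.

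The 45 genes of the spindle, chromosome condensation and cytokinesis summed to 1003 and 1106 RPM in OMP, against 847 and 204 RPM in TRPC2. Of these, 39 were lower in TRPC2 library 2 than in library 1, against 45.3% of all genes (median log2 ratio -2.09). tpx2, a spindle assembly factor, was at 66.7 and 72.1 RPM in OMP, against 45.4 and 30.7 RPM in TRPC2, and the condensin subunit gene smc4 at 40.5 and 47.3 RPM in OMP, against 54.4 and 7.37 RPM in TRPC2. The mitotic kinesin gene kif20a was at 6.68 and 9.93 RPM in OMP, without a read in TRPC2. In this list too, TRPC2 library 2 held the lowest sum.

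The 16 CDK inhibitor, pocket protein and antiproliferative genes differed in both directions between the TRPC2 libraries. They summed to 1163 and 1355 RPM in OMP, against 760 and 634 RPM in TRPC2. Of the 16, 8 were lower in TRPC2 library 2 than in library 1, against 45.3% of all genes (median log2 ratio -0.05). By more than 2-fold, 3 were lower and 3 were higher in TRPC2 library 2 (20.9% and 19.1% of all genes). cdkn1d, a CDK inhibitor gene, was at 30.7 and 41.6 RPM in OMP, against 47.3 and 53.0 RPM in TRPC2, above OMP in both TRPC2 libraries. rb1, the retinoblastoma gene that holds E2F factors in check, was at 14.7 and 12.8 RPM in OMP, against 1.75 and 1.98 RPM in TRPC2, and the antiproliferative gene btg1 at 306 and 270.0 RPM in OMP, against 184 and 243 RPM in TRPC2. cdkn2c, another CDK inhibitor gene, had the smallest unadjusted edgeR p of the list, 0.00888 (adjusted p = 0.0721). It was at 4.54 and 3.20 RPM in OMP, without a read in TRPC2. No gene of this list passed edgeR's adjusted threshold.

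**Figure D5:**
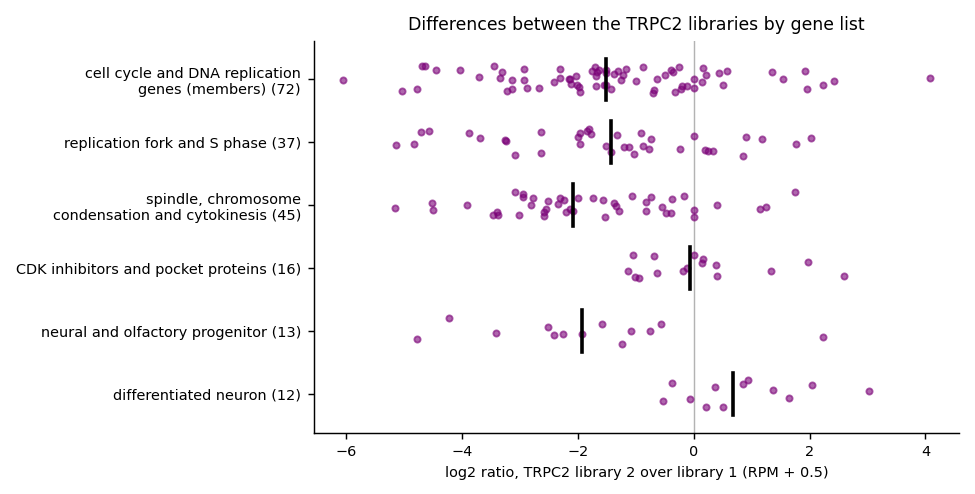
Log2 ratio of TRPC2 library 2 over TRPC2 library 1, on RPM + 0.5, for each gene (points) of 6 lists, with the number of genes in brackets and the list median as a black bar. The medians of the members, S phase, spindle and progenitor lists lie between -2.09 and -1.43, that of CDK inhibitors at -0.05 and that of differentiated neurons at 0.68.

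Markers of progenitors and of neurons also differed between the TRPC2 libraries. A list of 13 neural and olfactory progenitor genes summed to 1091 and 930 RPM in OMP, against 1202 and 477 RPM in TRPC2. Most of the TRPC2 sums lay in neurod1, at 265 and 157 RPM, insm1a, at 222 and 93.6 RPM, and insm1b, at 244 and 116 RPM. neurod1 was above both OMP libraries in both TRPC2 libraries. In OMP, 7 of the 13 were above both TRPC2 libraries (60.1% of all genes). Of the 13, 12 were lower in TRPC2 library 2, against 45.3% of all genes (median log2 ratio -1.92), and her4.1 had no read there. her6 was the exception, at 6.41 and 32.05 RPM in TRPC2. A list of 12 differentiated neuron genes summed to 2916 and 1857 RPM in OMP, against 3436 and 8037 RPM in TRPC2. Most of the rise between the TRPC2 libraries lay in tubb5, at 986 and 3073 RPM, and sncb, at 834 and 2159 RPM. Of the 12, 4 were more than 2-fold higher in TRPC2 library 2 (19.1% of all genes) and 3 were lower (45.3%). The median log2 ratio was 0.68. A list of 12 pigment and neural crest genes summed to 96.3 and 121 RPM in OMP, against 1344 and 4673 RPM in TRPC2. Most of the TRPC2 sum was the pteridine synthesis gene gch2. Of the 12, 5 were above both OMP libraries in TRPC2 (7.42% of all genes), among them mitfa, at 0.03 and 0.59 RPM in OMP, against 12.2 and 49.9 RPM. Another 5 were above both TRPC2 libraries in OMP (60.1% of all genes), among them tyrp1b and dct, which had no read in TRPC2. The part of these marker lists in the levels of the cell cycle genes was not tested. The smaller number of cells in TRPC2 library 2 goes with the same difference and cannot be told apart from it.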

How the data were processed

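RNA of FAC sorted OMP and TRPC2 neurons of 48 hpf zebrafish was measured in 4 libraries, 2 a class. The authors aligned the reads with STAR (build GRCz10), counted with VERSE and deposited whole-number counts per gene symbol. The authors also deposited RPM, the counts divided by a larger total per library and rounded to 2 decimals. No version, annotation or strand setting was given in the sources used here. RPM is not scaled to transcript length. Sums, medians and rankings by level were taken over genes, but are not read as differences in transcript number between genes. Amplified reads are not independent molecules, and floors cover counting error only. The labels call the libraries biological replicates and say no more, so p-values reflect only how these libraries spread, in part perhaps for technical reasons.

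Classes were compared on counts with edgeR 4.0.16 (TMM, default filterByExpr, glmQLFit, glmQLFTest, Benjamini-Hochberg over 21026 genes, called at an adjusted p under 0.05). R was 4.3.3. All fold changes put OMP over TRPC2, and the SE is the log2 fold change divided by the root of F. DESeq2 1.42.0 and limma 3.58.1 on log2(RPM + 0.5) were alternatives, as were other scalings, filters and pseudocounts, thinned counts, leaving out each library and a replicate block. An exact two-sided permutation test of 2 libraries against 2 cannot go below p = 0.333. Levels by role, separations and within-class ratios are descriptions, with no test. Any of the 72 members could be named. Values in all 4 libraries were given for those highest or with the smallest p in their role, and those above OMP in a TRPC2 library. Others, and trpc2a, s100z, gnao1a, gnai2a, gnai2b, epcam, pax6b, mpeg1.1, lyz, neurod1, insm1a, insm1b, her4.1, her6, tubb5, sncb, gch2, mitfa, tyrp1b, dct and the upper-case symbols, were picked once values were known. The members, the 3 further lists, the 11 marker lists and the tests were chosen with earlier results of these data known. Of the members, 70 matched a RefSeq symbol. Promoter sequences were not analysed here.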

Additional observations from a re-analysis of the deposited data

How the results depend on the processing

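By edgeR, 0 genes were called in either direction, also with DESeq2's size factors, library totals, either filter, thinned counts and no red blood cell genes. For OMP and TRPC2, DESeq2 called 2717 and 1192 genes, limma 4945 and 165 (pseudocount 0.5) or 5350 and 175 (pseudocount 0.1), and the fit with a replicate block 329 and 268. Leaving out 1 library gave 60 to 8023 genes higher in OMP and 50 to 3773 higher in TRPC2. Here the lone library is assumed to vary as the other class does, so its own spread was not measured. Counts with 1 library left out, below also for members, are therefore not read as differences. Among the fits with 1 library left out, members were called only without a TRPC2 library, where the all-gene counts were also at the upper end of their ranges. Of the members, DESeq2 called 6, limma 8 with either pseudocount and the block fit 2, all higher in OMP. Leaving out 1 library gave 0 to 43 members higher in OMP and 0 to 10 higher in TRPC2: 43 and 4 without TRPC2 library 1, 17 and 10 without TRPC2 library 2. Of the other cell cycle genes DESeq2 called 6 and limma 10 with either pseudocount, all higher in OMP, and leaving out 1 library gave 0 to 55 in OMP and 0 to 18 in TRPC2. The labels do not say whether same-numbered libraries are paired. Their deviations correlated at 0.00869 over genes, which with 2 libraries a class cannot exclude a pairing. The members' median log2 fold change was 1.81 with limma and a pseudocount of 0.1, and -0.11 to 1.69 with 1 library left out.

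The 44 members with OMP above both TRPC2 libraries were 28 on TMM-scaled counts (44.7% of all genes) and 19 with a 2-fold gap. They were 67 without TRPC2 library 1 (93.1%, against 75.4% of all genes) and 46 without TRPC2 library 2 (63.9%, against 72.4%). Without an OMP library they were 47 and 53. The 2 members with TRPC2 above were 4 on TMM-scaled counts (18.6% of all genes), 0 with a 2-fold gap and 2 to 14 with 1 library left out. For the 2-fold gap and the left-out OMP libraries no share over all genes was taken. Those counts are therefore not read as particular to the members. The prefix-only genes had a log2 ratio of OMP over TRPC2 sums of 0.55, and 0.42 on gene totals. Among single members, fold changes turned round for mcm4 (library totals 0.17, limma 0.52 and 0.51 with pseudocounts of 0.1 and 0.5, left-out libraries -0.88 to 0.22), mki67 (library totals 0.25, block 0.34, limma 1.12 and 1.11, left-out libraries -1.08 to 1.65), rrm2 (limma 0.52 and 0.51, left-out libraries -1.95 to 1.29) and e2f3 (block 0.20, limma 0.97 and 0.90, left-out libraries -1.47 to 1.74). Leaving out 1 library alone turned round mcm5 (-0.05 to 2.49), pcna (-0.38 to 0.93), top2a (-0.57 to 2.45), ccnb1 (-0.38 to 1.43), cdk1 (-0.23 to 4.74), plk1 (-0.25 to 1.54) and cenpf (-0.75 to 2.28). Others kept their sign but moved: with 1 library left out, mcm2 was 0.84 to 2.33, rrm1 0.45 to 2.01, ccnd1 0.09 to 2.03, bub1 2.06 to 3.46, mcm3 2.98 to 4.56, ccnd2a 3.79 to 5.77 and cenpo 4.76 to 11.17. The cause of these changes was not tested. In TRPC2, reads of 0 in 6 and 7 members set a limit of 0.0339 and 0.0356 RPM.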
